A study of Rattus norvegicus with 38 samples.

Results

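The 5 genes Fzd2, Fzd5, Fgfr3, Nrp2 and Ltbp1, which act in Wnt and growth factor signalling, each had 1 differential methylation region (DMR) in the buccal swabs of rat pups, and these 5 DMRs of 3417 in all are described here. They were found by gene name in the study's supplementary lists of DMRs weighted towards age and towards experience, which together hold 594 DMRs, 458 of them with a gene. DNA methylation was measured by reduced representation bisulfite sequencing (RRBS), which reads the methylation of CpGs in CpG-rich fragments of the genome. Each of 19 Sprague-Dawley pups was swabbed on postnatal day 2 (P2) and on P10, for 38 samples in all. All were born to primiparous dams, gathered from several litters on P2 and then assigned at random to a dam. Controls lived with their dam in a standard bedded cage, and LBNs lived from P2 to P9 in a cage with limited bedding and nesting material. Cohort 1 had 6 controls and 5 LBNs, and cohort 2, run on other dates, had 4 controls and 4 LBNs. The P2 swab was taken before pups were assigned, so a group difference in it is not an effect of the experience on the pup. The order in which swabs were prepared and sequenced is not stated. A P2 difference between the pups cannot be told apart from one that arose in that work. Dam, cage and sex are not given with the samples used here. Where pups of a group had the same dam, the p values below are too small.

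Frizzled receptors bind Wnt proteins and pass their signal to the inside of the cell, by β-catenin or by planar polarity pathways. Fibroblast growth factor receptors are receptor tyrosine kinases, neuropilins are co-receptors for semaphorins and vascular endothelial growth factors, and latent TGF-β binding proteins hold TGF-β in the extracellular matrix until it is released. Methylation near a gene is not its expression, and no expression was measured.

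The measure deposited for each DMR and sample was the methylation level, the percentage of reads that were methylated over all CpGs of the DMR. Reads per value are not given with the percentages, and the depth of single values is unknown. δ methylation is log2(P10/P2) of a pup, and is positive where the level was higher on P10. Over all DMRs the mean level went from 51.7% on P2 to 50.1% on P10 in cohort 1 controls and from 51.7% to 52.7% in cohort 1 LBNs. In cohort 2 it went from 48.6% to 42.7% in controls and from 49.0% to 42.2% in LBNs. A swab holds epithelial and white blood cells, and a shift in their mixture cannot be told apart from a change of methylation within cells. Of 19 marker genes of both cell types, only 6 had a DMR in the lists. These were Dsc3 and Epcam of epithelium and Cd37, Cxcr1, Irf8 and Lsp1 of leukocytes.

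On the rn6 assembly, the Fzd2 DMR lay in an exon at chr10:90551877-90551939. The Fzd5 DMR was a single CpG position in intergenic sequence at chr9:71440661-71440662. The Fgfr3 DMR was a single position in an intron at chr14:82285186-82285187, and the Nrp2 DMR a single position in an intron at chr9:69519411-69519412. The Ltbp1 DMR spanned 12 bases of intergenic sequence at chr6:21617305-21617317. Coordinates are as deposited, and gene and location are those of the study's annotation. None of the 5 was annotated to a promoter. Mean levels over the 38 samples were 10.8% for Fzd2, 24.3% for Fgfr3, 34.2% for Nrp2, 36.8% for Ltbp1 and 43.5% for Fzd5, all under the 48.9% of the median DMR. The SD of δ methylation over the 19 pups was 0.76 for Fzd5, 0.84 for Fzd2, 1.04 for Ltbp1, 1.08 for Nrp2 and 1.31 for Fgfr3, against a median of 0.57 over DMRs.

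The lists were drawn by the study from weights in principal component analyses of these same pups. Fzd2, Fgfr3 and Ltbp1 were in the age list, which used the levels of controls. Fzd2, Fzd5, Nrp2 and Ltbp1 were in the experience list, which used the δ methylation of all pups. The control values with age of the first 3 genes are thus not independent evidence of a direction. Nor are the differences between LBNs and controls in δ methylation of the last 4, or in the P2 and P10 levels that make it up. The age differences in LBNs of the last 4 genes rest on the same δ methylation and have the same limit. So do the age differences of all pups, as they include values used to draw the lists. The p values and lack of overlap given below for all these values and differences do not allow for that choice. The authors had also selected all 3417 DMRs as places where these pups differed between P2 and P10.

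**Figure D1:**
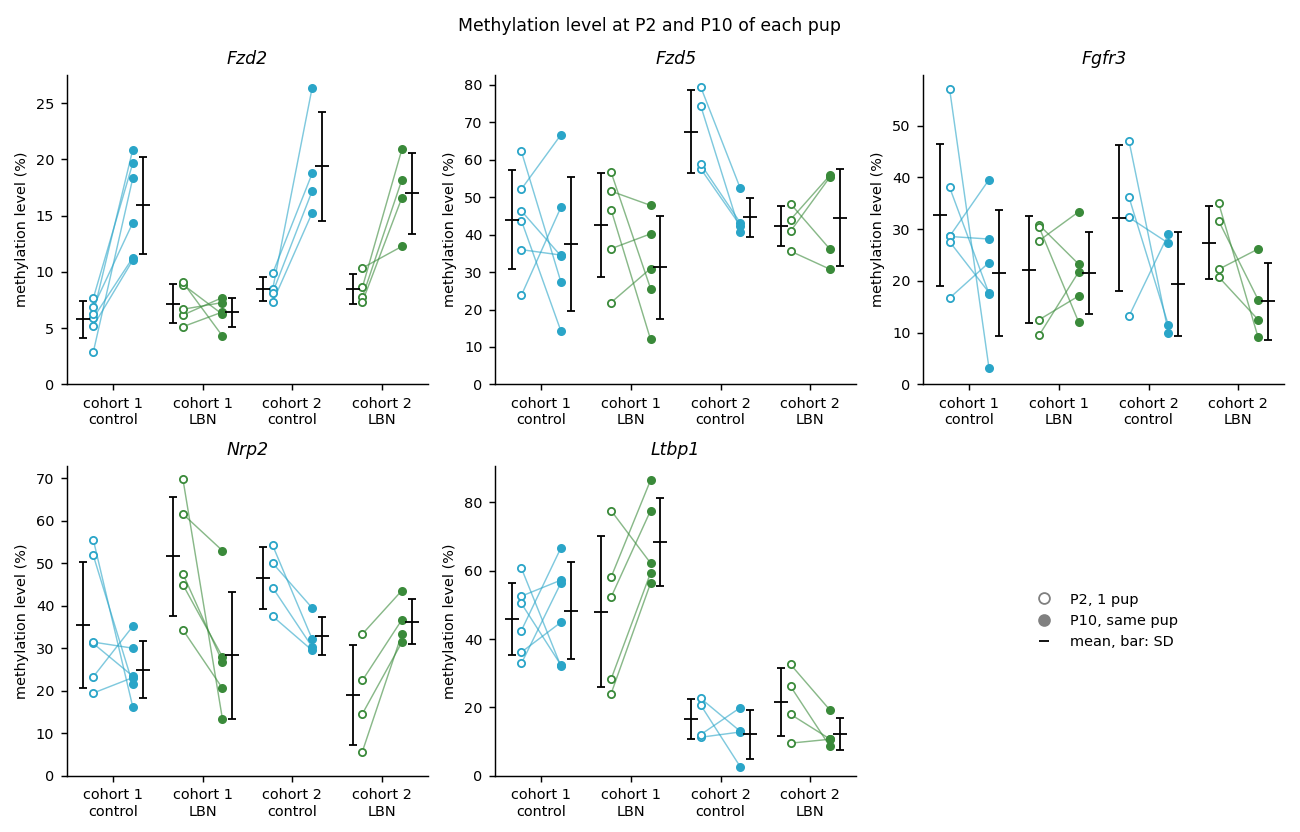
Methylation level (%) on P2 (open points) and P10 (filled points) of each pup at the 5 DMRs, with lines joining the swabs of a pup and black bars for mean ± SD (6 and 5 pups in cohort 1, 4 and 4 in cohort 2; axes start at 0 and differ between panels). Fzd2 levels on P10 were 11.03% or more in every control and 7.72% or less in every cohort 1 LBN, and Ltbp1 levels on P10 were under 20% in every cohort 2 pup.

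The Fzd2 DMR was more methylated on P10 than on P2 in all 10 controls and in all 4 LBNs of cohort 2, but in only 3 of the 5 LBNs of cohort 1. Fzd2 is a Wnt receptor that acts in both canonical and non-canonical signalling. In cohort 1 controls its level ran from 2.86% to 7.66% on P2 (median 6.09%) and from 11.03% to 20.9% on P10 (median 16.3%). In cohort 2 controls it was 9.88%, 8.46%, 8.16% and 7.31% on P2 and 18.8%, 26.4%, 17.2% and 15.3% on P10. The ranges of P2 and P10 did not overlap in controls of either cohort. In cohort 2 LBNs it was 7.76%, 8.63%, 10.3% and 7.34% on P2 and 18.2%, 20.9%, 12.3% and 16.6% on P10, again with no overlap. In cohort 1 LBNs it was 6.17%, 8.87%, 6.68%, 9.06% and 5.13% on P2 and 7.72%, 6.23%, 7.28%, 4.30% and 6.44% on P10. These 5 pups stayed below 10% on both days, with 3 higher and 2 lower on P10.

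Over the 19 pups the Fzd2 level was 7.29% ± 1.82 (SD) on P2 and 14.4% ± 6.10 on P10, and was higher on P10 in 17 of 19 pups. Tested with limma on log2 odds of the percentage with the pup as a block, the rise was 0.92 (SE 0.21, adjusted p = 0.00124). It was the only one of the 5 DMRs past the adjusted threshold of 0.05. Among all DMRs, 13.7% rose and 30.0% fell by this test. In controls alone Fzd2 rose by 1.40 (SE 0.27, adjusted p = 0.00222), again alone among the 5, where 7.9% of all DMRs rose and 19.7% fell. In LBNs alone the difference was 0.38 (SE 0.31, adjusted p = 0.452), and none of the 5 DMRs passed, against 5.33% of all DMRs.

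Between LBNs and controls, the Fzd2 difference in cohort 1 lay in the P10 swab. δ methylation averaged 1.48 ± 0.65 (SD, n = 6) in controls and -0.16 ± 0.61 (n = 5) in LBNs of cohort 1, a difference of -1.64, with no overlap between the groups. The exact two-sided permutation p was 0.00216, the smallest that 462 arrangements allow. Across all DMRs, limma on δ methylation within cohort 1 did not call it (SE 0.36, adjusted p = 0.769), nor any other DMR (0.0%), with 196 at an unadjusted p under 0.05. On P10 the log2 level was lower by 1.30 in LBNs, again without overlap and with the same p. On P2 it was higher in LBNs by 0.34 (exact permutation p = 0.242). The groups of cohort 1 did not overlap at 0.537% of DMRs in δ methylation, 4.8% in the level on P10 and 0.146% in the level on P2. Limma on log2 odds within cohort 1 gave -1.33 on P10 (SE 0.33, adjusted p = 0.0365), where 12.0% of all DMRs passed. In the same swabs the mean level of the 2 epithelial marker DMRs ran from 17.5% to 42.0% in controls and from 36.3% to 47.3% in LBNs. The mean of the 4 leukocyte marker DMRs ran from 21.6% to 28.7% in controls and from 28.6% to 36.6% in LBNs. Within cohort 1, mean δ methylation of controls and LBNs was -0.32 and 0.63 at Lsp1, -1.22 and -1.06 at Cxcr1, and 0.55 and 0.72 at Cd37. At Irf8 it was lower in LBNs, with 0.65 and 0.55. Both epithelial DMRs were higher in LBNs, with -0.32 and 0.10 at Dsc3 and 0.67 and 1.31 at Epcam. Over both cohorts the 4 leukocyte DMRs did not go one way, and δ methylation of LBNs minus controls was 0.77 at Lsp1 and 0.49 at Cxcr1. It was -0.41 at Irf8 and -0.58 at Cd37, and none was called by limma. The part of cell mixture in the Fzd2 difference was not tested.

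This Fzd2 difference was not seen at that size in cohort 2. There δ methylation averaged 1.18 ± 0.32 (n = 4) in controls and 0.98 ± 0.49 (n = 4) in LBNs, a difference of -0.19 (exact permutation p = 0.629). The log2 level of cohort 2 LBNs was lower by 0.19 on P10 (exact permutation p = 0.457). Whether the difference in δ methylation differed between cohorts was tested as an interaction in limma, which gave 1.44 for cohort 2 minus cohort 1 (SE 0.50, unadjusted p = 0.00963, adjusted p = 0.121). This test called 1 of all DMRs (0.0298%), which was none of the 5. In percentage points the Fzd2 interaction had an unadjusted p of 0.250, and in log2 odds one of 0.0513. With both cohorts and cohort as a covariate, the difference in δ methylation was -1.03 (SE 0.29, unadjusted p = 0.00228), the third smallest p of 3354 DMRs, with an adjusted p of 0.9999. In percentage points the difference was -7.34 (SE 3.68, unadjusted p = 0.0586), rank 130 of 3417, and in log2 odds it was -1.04 (SE 0.38, unadjusted p = 0.0106), rank 16. The range of adjusted p without each pup in turn was 0.760 to 1.0. An exact permutation within cohorts gave p = 0.00173 for this DMR alone. The mean level of Fzd2 was at percentile 2.08 of all DMRs, and a log ratio can vary more at low levels. No DMR was called by limma in δ methylation (0.0%), in the level on P10 (0.0%) or in the level on P2 (0.0%) between LBNs and controls of both cohorts, while 109, 337 and 457 had an unadjusted p under 0.05.

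**Figure D2:**
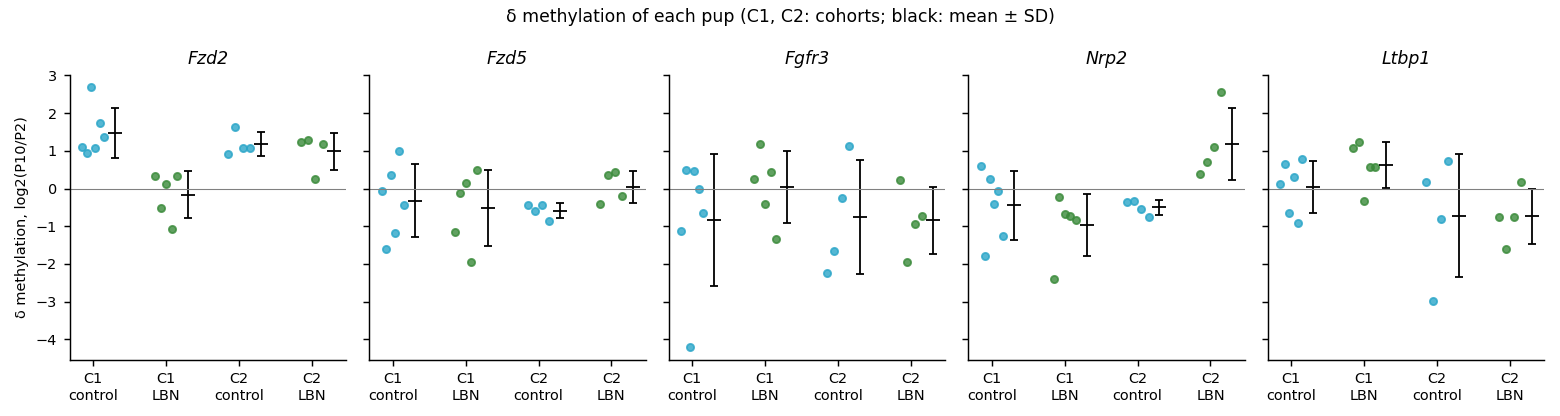
δ methylation, log2(P10/P2), of each pup at the 5 DMRs by cohort (C1, C2) and experience, with mean ± SD in black and 0 as a grey line. Fzd2 values of cohort 1 LBNs lay below all those of cohort 1 controls, and Nrp2 values were below 0 in all 5 cohort 1 LBNs and above 0 in all 4 cohort 2 LBNs.

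The Fzd5 DMR differed between LBNs and controls of cohort 2 in the P2 swab. Fzd5 is a Wnt receptor with known roles in the eye and in the intestinal epithelium. In cohort 2 controls its level was 57.6%, 79.4%, 58.8% and 74.4% on P2 and 42.4%, 52.4%, 43.2% and 40.7% on P10. In cohort 2 LBNs it was 48.3%, 44.0%, 40.9% and 35.6% on P2 and 36.1%, 55.9%, 55.4% and 30.8% on P10. On P2 every LBN of cohort 2 lay below every control, and on P10 the groups overlapped. A lack of overlap on P2 was common in cohort 2, at 24.0% of all DMRs, and was not particular to Fzd5. Mean levels on P10 were 44.7% ± 5.25 in controls and 44.5% ± 13.0 in LBNs (n = 4 each).

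The difference in δ methylation at Fzd5 in cohort 2 lay in the P2 swab. The groups differed by 0.63 in δ methylation, by -0.67 in the log2 level on P2 and by -0.046 in the log2 level on P10. The first 2 of these had an exact permutation p of 0.0286, the smallest that 70 arrangements allow, and the third had p = 0.8. Limma on δ methylation within cohort 2 did not call Fzd5 (SE 0.25, adjusted p = 0.187), where 0.358% of all DMRs passed. In cohort 2, 24.0% of all DMRs did not overlap between the groups on P2, 13.4% did not in δ methylation and 1.11% did not on P10. Limma within cohort 2 gave -1.53 for the P2 level (SE 0.38, adjusted p = 0.0296), where 14.0% of all DMRs passed. In cohort 1 the Fzd5 level ran from 23.8% to 62.2% on P2 and from 14.3% to 66.7% on P10 in controls. In cohort 1 LBNs it ran from 21.9% to 56.7% and from 12.0% to 47.8%, so that the groups overlapped on both days. With age, Fzd5 was lower on P10 in 13 of 19 pups, by 0.61 in log2 odds (SE 0.27), with a limma adjusted p of 0.0680. It passed in 5 of 19 such fits with a pup left out (lowest adjusted p = 0.0255). In controls alone it passed in 2 (lowest adjusted p = 0.0243).

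**Figure D3:**
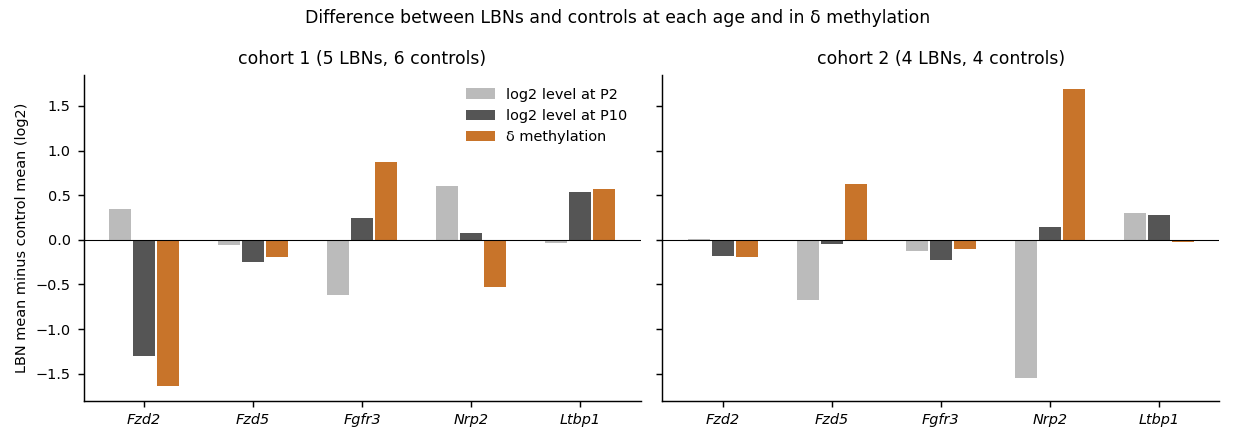
Mean of LBNs minus mean of controls in log2 level on P2 (light grey), in log2 level on P10 (dark grey) and in δ methylation (orange) at the 5 DMRs, by cohort. The orange bar is the dark bar minus the light bar. For Fzd2 in cohort 1 it follows the P10 bar (-1.30 of -1.64), and for Fzd5 and Nrp2 in cohort 2 it mirrors the P2 bar (-0.67 and -1.55).

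The Fgfr3 DMR varied more between pups than 99.0% of DMRs in δ methylation, and passed the adjusted threshold in no comparison as designed. For age it passed without the pup as a block (adjusted p = 0.0296) and in 2 of 19 fits with a pup left out (lowest adjusted p = 0.0407). Fgfr3 is the fibroblast growth factor receptor known as a brake on growth of long bones. In cohort 1 controls its level ran from 16.7% to 57.1% on P2 (median 28.6%) and from 3.12% to 39.5% on P10 (median 20.6%). Both the highest P2 and the lowest P10 value belonged to the control C6, whose δ methylation of -4.19 adds to the spread in δ methylation. The mean level of Fgfr3 was at percentile 10.9 of all DMRs, and a log ratio can vary more at low levels. In cohort 1 LBNs it was 27.8%, 9.52%, 30.8%, 12.5% and 30.3% on P2 and 33.3%, 21.7%, 23.2%, 17.1% and 12.0% on P10. Of these 5 pups, 3 were higher on P10.

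In cohort 2 controls the Fgfr3 level was 47.1%, 36.2%, 32.3% and 13.2% on P2 and 10.0%, 11.4%, 27.3% and 29.0% on P10. In cohort 2 LBNs it was 22.2%, 35.0%, 31.6% and 20.8% on P2 and 26.2%, 9.09%, 16.4% and 12.5% on P10. In each group of cohort 2, 3 of 4 pups were lower on P10. Over all pups the level was 28.7% ± 11.7 on P2 and 19.9% ± 9.29 on P10, and was lower on P10 in 12 of 19. The age difference was -0.73 in log2 odds (SE 0.33, adjusted p = 0.0734), and -0.49 without C6. δ methylation of LBNs exceeded that of controls by 0.87 in cohort 1 (exact permutation p = 0.407) and fell short by 0.10 in cohort 2 (difference -0.10, exact permutation p = 0.943). The limma difference of both cohorts was 0.46, and 0.065 without C6.

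The Nrp2 DMR moved in opposite directions in the LBNs of the 2 cohorts. Nrp2 is a co-receptor for class 3 semaphorins and for VEGF-C, known in axon guidance and in lymphatic vessels. In cohort 1 LBNs its level was 69.7%, 61.5%, 44.9%, 34.3% and 47.5% on P2 and 13.3%, 52.9%, 28.0%, 20.6% and 26.7% on P10, so that all 5 were lower on P10. In cohort 2 LBNs it was 33.3%, 22.4%, 14.5% and 5.68% on P2 and 43.5%, 36.7%, 31.4% and 33.3% on P10, so that all 4 were higher. These LBNs already lay apart on P2, at 34.3% to 69.7% in cohort 1 and 5.68% to 33.3% in cohort 2. On P10 they overlapped, at 13.3% to 52.9% and 31.4% to 43.5%. At 3.43% of DMRs all LBNs of one cohort went one way and all LBNs of the other cohort the opposite way.

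Controls at Nrp2 were less apart. In cohort 2 controls the level was 37.5%, 50.0%, 44.2% and 54.2% on P2 and 29.5%, 39.5%, 30.3% and 32.1% on P10, lower on P10 in each pup. In cohort 1 controls it ran from 19.4% to 55.6% on P2 (median 31.3%) and from 16.2% to 35.1% on P10 (median 23.3%), lower in 4 of 6. Limma within a cohort gave an age difference in LBNs of -1.52 in cohort 1 (SE 0.46, adjusted p = 0.0351) and of 1.45 in cohort 2 (SE 0.42, adjusted p = 0.0493), where 16.5% and 16.6% of all DMRs passed. These p values do not allow for the choice of Nrp2 by the δ methylation of the same pups. With both cohorts together the age difference of all pups was -0.48 (SE 0.31, adjusted p = 0.226).

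Most of the Nrp2 difference between LBNs and controls in cohort 2 was present on P2. δ methylation averaged -0.50 ± 0.20 in controls and 1.19 ± 0.96 in LBNs (n = 4 each), a difference of 1.69 with no overlap. The log2 level on P2 was lower by 1.55 in LBNs, also with no overlap, which makes 91.7% of the difference in δ methylation. Both had an exact permutation p of 0.0286, and 13.4% of all DMRs did not overlap in δ methylation and 24.0% on P2. Limma on δ methylation within cohort 2 did not call Nrp2 (SE 0.43, adjusted p = 0.0923). On P10 the log2 level differed by 0.14 (exact permutation p = 0.371). Limma within cohort 2 gave -2.06 on P2 (SE 0.51, adjusted p = 0.0292), where 14.0% of all DMRs passed. In cohort 1 the signs were the other way, with a difference of 0.60 on P2 (exact permutation p = 0.0931) and of -0.52 in δ methylation (exact permutation p = 0.353). The interaction of experience and cohort was 2.21 (SE 0.70, unadjusted p = 0.00534, adjusted p = 0.106).

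The Ltbp1 DMR differed chiefly between the cohorts. Ltbp1 binds latent TGF-β and tethers it to fibrillin and fibronectin. In cohort 1 controls its level ran from 32.9% to 60.8% on P2 (median 46.5%) and from 32.1% to 66.7% on P10 (median 50.6%). In cohort 1 LBNs it was 28.3%, 24.0%, 77.6%, 52.3% and 58.1% on P2 and 59.4%, 56.4%, 62.2%, 77.6% and 86.5% on P10. All cohort 1 pups were above 30% on P10, whether control or LBN.

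In cohort 2 controls the Ltbp1 level was 11.2%, 20.6%, 22.6% and 12.0% on P2 and 12.8%, 2.60%, 13.0% and 19.9% on P10. In cohort 2 LBNs it was 32.6%, 26.2%, 17.99% and 9.52% on P2 and 19.2%, 8.55%, 10.7% and 10.7% on P10. On P10 the highest cohort 2 pup, at 19.9%, was below the lowest cohort 1 pup, at 32.1%. Mean levels on P10 were 57.4% ± 16.7 (n = 11) in cohort 1 and 12.2% ± 5.60 (n = 8) in cohort 2, and on P2 they were 46.9% ± 15.9 and 19.1% ± 8.03.

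With experience as a covariate, limma gave a cohort difference at Ltbp1 of -1.95 log2 odds on P2 (SE 0.38, adjusted p = 0.00259) and of -3.43 on P10 (SE 0.39, adjusted p = 3.96e-07). Of all DMRs, 9.31% were lower in cohort 2 on P2 and 42.1% on P10. Fzd2 was higher in cohort 2 on P10, by 0.88 (SE 0.26, adjusted p = 0.00736), as were 7.11% of DMRs, and the other 3 members did not pass on either day. In δ methylation the cohort difference was -1.06 at Ltbp1 (SE 0.40, adjusted p = 0.130) and 1.01 at Nrp2 (SE 0.43, adjusted p = 0.171). None of the 5 passed, against 6.2% of all DMRs. The cohorts differed in date, and what else differed with it cannot be told apart here. On P10 the mean of the 2 epithelial marker DMRs was 31.9% in controls and 39.8% in LBNs of cohort 1, and 18.6% and 16.5% in cohort 2. The mean of the 4 leukocyte marker DMRs was 26.2% and 31.7% in cohort 1, and 21.1% and 20.8% in cohort 2. The epithelial mean follows mainly Dsc3, at 44.5% ± 20.6 over all pups on P10, against 11.3% ± 4.48 at Epcam. Of the leukocyte DMRs, Lsp1 had the highest level on P10, at 43.2% ± 15.6 over all pups, against 15.8% ± 4.36 at Cxcr1. The part of cell mixture in the cohort difference was not tested.

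Between LBNs and controls within cohort 1, the Ltbp1 level on P10 was higher in LBNs by 0.54 in log2 level (exact permutation p = 0.0563) and by 1.29 in log2 odds (SE 0.45, limma adjusted p = 0.0587). In cohort 2 it was 12.3% ± 4.72 in LBNs and 12.1% ± 7.13 in controls (n = 4 each). δ methylation was above 0 in 4 of 5 cohort 1 LBNs and in 1 of 4 cohort 2 LBNs. In controls it was above 0 in 4 of 6 of cohort 1 and in 2 of 4 of cohort 2. Without regard to experience, Ltbp1 showed no common direction with age, at 0.06 log2 odds (SE 0.31, adjusted p = 0.899).

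**Figure D4:**
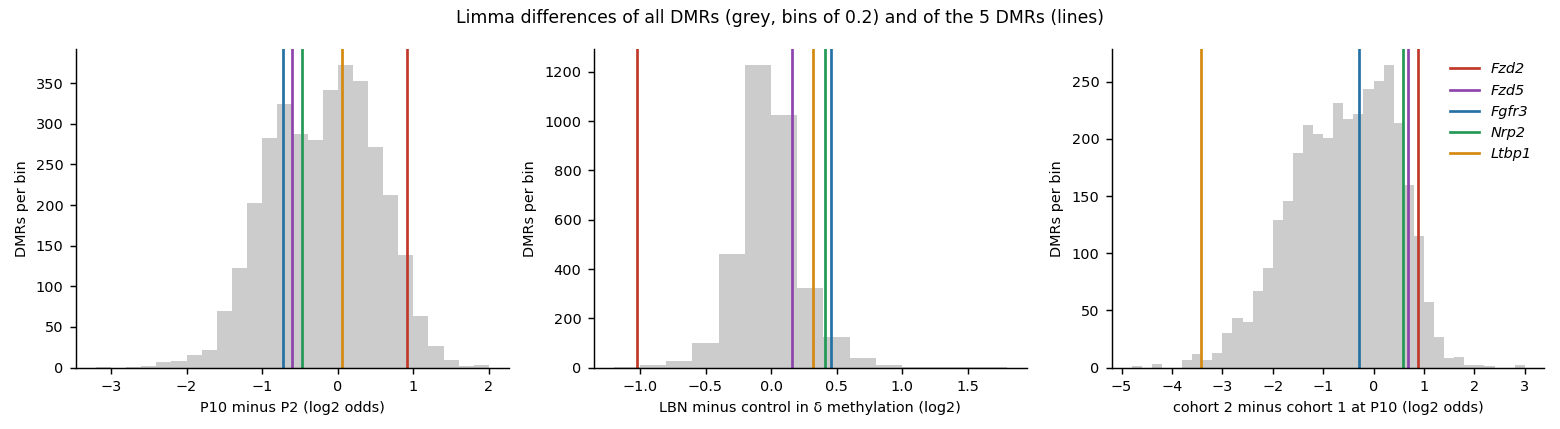
Histograms of limma differences over all DMRs (grey, number of DMRs per bin of 0.2) with the 5 members as coloured lines, for age (3417 DMRs), for δ methylation of LBNs minus controls (3354 DMRs) and for the level on P10 of cohort 2 minus cohort 1 (3417 DMRs). Fzd2 lay at the low end for experience (-1.03) and Ltbp1 at the low end for cohort (-3.43).

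Other genes of the same pathways in the study's lists were 19, with 23 DMRs. With age, 8 of the 23 rose, 6 fell and 9 did not pass, where 13.7% of all DMRs rose and 30.0% fell. The median difference was 0.33 against -0.14 over all DMRs. None was called between LBNs and controls in δ methylation, where 1 of Sema4d, with a level of 0 in a sample, had no value. These lists were drawn from these pups, so the counts are not independent evidence.

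Of the 6 other Wnt pathway DMRs, 3 rose, 2 fell and 1 did not pass. Celsr1, a cadherin of planar cell polarity, fell from 28.8% ± 5.91 to 14.5% ± 5.60 and was lower on P10 in all 19 pups (limma adjusted p = 4.4e-05). An exon DMR of Fzd7, a receptor close to Fzd2, rose from 24.99% ± 10.3 to 40.2% ± 13.1 (adjusted p = 0.004). Both DMRs of the ligand Wnt3 rose, the intergenic one from 11.5% ± 4.11 to 19.6% ± 10.7 (adjusted p = 0.00863) and the intron one from 15.6% ± 9.39 to 22.4% ± 8.77 (adjusted p = 0.0171). Of the 3 FGF pathway DMRs, those of the ligand Fgf4 (7.39% ± 2.69 to 12.3% ± 2.72, adjusted p = 0.00225) and of the transcription factor Etv5 (35.1% ± 5.43 to 48.5% ± 7.80, adjusted p = 0.00101) rose, and that of Etv4 (62.6% ± 18.4 to 45.2% ± 17.3, adjusted p = 0.00965) fell.

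Of the 6 semaphorin and neuropilin DMRs, only that of Nrp1 passed. It lay in a promoter and rose from 20.2% ± 9.59 to 36.3% ± 9.93 (adjusted p = 0.00107), in 16 of 19 pups. Of the 8 other TGF-β family DMRs, 2 rose, 3 fell and 3 did not pass. An exon DMR of Gdnf, a ligand of this family that signals through Ret, rose from 11.4% ± 4.76 to 30.1% ± 12.0 in all 19 pups (adjusted p = 1.1e-05). An intron DMR of Gdnf also rose (24.98% to 37.4%, adjusted p = 0.00434), and its intergenic DMR fell (48.1% to 36.1%, adjusted p = 0.0108). An intron DMR of Tgfbr3, a TGF-β co-receptor, fell from 23.3% ± 7.82 to 11.3% ± 11.5 (adjusted p = 0.000283). Another intron DMR of Tgfbr3 did not pass (62.6% ± 12.5 to 57.8% ± 18.6, adjusted p = 0.449). The DMR of Skil, also in an intron, fell from 71.3% ± 9.80 to 52.5% ± 17.2 (adjusted p = 0.00322).

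All members but Ltbp1 had 1 other DMR within 100000 bases. The neighbour of Fzd2, at -25239 bases from its start, rose from 79.4% ± 6.65 to 85.9% ± 6.03 (adjusted p = 0.00729). The neighbour of Fzd5, at 44066 bases, fell from 59.4% ± 17.8 to 46.3% ± 17.7 (adjusted p = 0.0321). The neighbours of Fgfr3, at 17775 bases, and of Nrp2, at -73453 bases, did not pass, with adjusted p values of 0.678 and 0.207. Beside Fzd2, mean δ methylation of the neighbour was 0.10 in controls and 0.11 in LBNs of cohort 1, where Fzd2 itself had 1.48 and -0.16. From 79.4% on P2 the neighbour had little room for a rise in log2 ratio, so these values cannot be compared in size. The nearest DMR to Ltbp1 was at -171108 bases.

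The δ methylation of each member over the 19 pups was set beside that of 421 other listed DMRs with a gene. The DMRs most like Fzd2 were those of Foxc1 (r = 0.73) and Adcy7 (r = 0.70). Those most like Fzd5 were RGD1307603 (r = 0.82) and AABR07026565.1 (r = 0.79), and those most like Fgfr3 were Agap3 (r = 0.78) and Npat (r = 0.76). Nrp2 was closest to Ercc1 (r = 0.81) and Tbc1d2b (r = 0.80). Ltbp1 was closest to Dsc3 and Kdm2b (both r = 0.93), and Dsc3 is one of the epithelial marker genes above. With age Dsc3 fell (-0.86, adjusted p = 0.0239), while the other epithelial marker, Epcam, rose (0.72, adjusted p = 0.00632). Points share the pups, their swabs and the cohorts, so these values are descriptions.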

How the data were processed

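Methylation percentages of 3417 DMRs in 38 samples were used as deposited. The authors trimmed reads with Trim Galore 0.4.3, aligned them to rn6 with Bismark 0.16.3, required over 10 reads at a CpG, tested P2 against P10 within each pup with a false discovery rate under 0.05, and joined nearby differing CpGs into DMRs. Each deposited percent is methylated over all reads, before correction for cohort. No read number is given, so no interval could be computed for a single value and no other coverage minimum could be tried.

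Members were the DMRs that the gene field of the study's lists gives to the 5 genes. Members, gene lists and tests were chosen with earlier results of these data known. Named beside them, by rule, were DMRs within 100000 bases, the 2 listed DMRs with the highest Pearson r per member, and up to 4 DMRs per pathway with the smallest age p. The remaining listed DMRs of Gdnf and Tgfbr3 were named besides. The tests of level between cohorts were added after the data were seen.

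Limma 3.58.1 in R 4.3.3 (lmFit, eBayes) was fitted across DMRs. Levels entered as log odds, log2((percent + 1)/(100 − percent + 1)), and δ methylation as log2(P10/P2) over the 3354 DMRs without a 0, with Benjamini-Hochberg adjustment at 0.05. The pup was a block for age, as the labels name the pup at both ages. Over DMRs, deviations of the same pup on P2 and P10 from their group means had a mean r of -0.0972 (-0.650 to 0.449). Where a control and an LBN had the same number, it was taken as a name only. Single DMRs were compared by two-sided exact permutation (Python 3.11.15, scipy 1.17.1, numpy 2.4.6, pandas 2.3.3). Figures were drawn with matplotlib 3.10.9. Only the age fit and the fit of δ methylation between LBNs and controls were tried on simulated data. The latter data had the spread of log odds differences, not that of log2(P10/P2). The rn6 sequence was not used here.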

Additional observations from a re-analysis of the deposited data

Results flagged for a closer look

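Single pups stood apart in 3 groups, no more than chance would flag, and the Nrp2 groups moved opposite ways. Among 60 groups of 4 to 6 pups examined for a value far from the others by Dixon's criterion, 3 had one. Chance alone would flag about 1 in 20, which is the rate found. The Fzd2 δ methylation of pup LBN9 of cohort 2 was 0.25, below the other 3 LBNs of its cohort, which ran from 1.18 to 1.28. The Fgfr3 δ methylation of control C6 of cohort 1 was -4.19, with the next lowest control at -1.12. The Nrp2 δ methylation of pup LBN2 of cohort 1 was -2.39, with the next lowest LBN at -0.83.

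All cohort 1 LBNs were lower on P10 at Nrp2 and all cohort 2 LBNs were higher, with a difference of means in δ methylation of -2.16. Nrp2 levels of these LBNs did not overlap between the cohorts on P2, and overlapped on P10. All cohort 2 controls were lower and all cohort 2 LBNs higher, with a difference of -1.69. Such opposite directions in these 2 groups were found at 1.82% of DMRs. The difference between the cohorts' LBNs was not tested by itself. Nrp2 had an exact permutation p of 0.0286 for the difference within cohort 2.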

How the results depend on the processing

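Of 300 member differences recomputed under other scales, pseudocounts, filters, variance models, blocks or cohorts, 272 kept their direction and side of the threshold, 3 lost and 8 gained a call, and 17 reversed. With one pup left out, 822 of 855 did, 12 gained a call and 21 reversed. The cause of the changes was not tested.

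Fzd2 kept its call for age in all 19 omissions of a pup (adjusted p from 0.00044 to 0.00295), but not in cohort 1 alone (0.74, adjusted p = 0.0805). In controls it lost its call in cohort 1 alone (1.48, adjusted p = 0.0887) and in cohort 2 alone (1.27, adjusted p = 0.0633). Without the pup as a block the age fits called 1676 DMRs, 1342 in controls and 394 in LBNs (with it 1493, 943 and 182), with Fgfr3 past the threshold for age (adjusted p = 0.0296) and Nrp2 in controls (adjusted p = 0.0424). With the shared number of controls and LBNs as a replicate block, 0 DMRs were called in δ methylation, 65 had an unadjusted p under 0.05, Fzd2 was at -1.23, and Fgfr3 reversed to -0.14. These numbers gave no pairing, with a mean r of -0.0235 over 5 pairs and 0.00262 over 41 others.

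Reversals within a cohort were, for age, Nrp2 in cohort 2 (0.32) and Ltbp1 in cohort 2 (-0.78), for age in controls Ltbp1 in cohort 1 (0.14), and for age in LBNs Fzd2 in cohort 1 (-0.15), Fzd5 in cohort 2 (0.12), Fgfr3 in cohort 1 (0.0090), Nrp2 in cohort 2 (1.45) and Ltbp1 in cohort 2 (-0.86). Between LBNs and controls they were Fgfr3 on P10 in cohort 1 (0.19), Nrp2 on P2 in cohort 1 (1.01), and in δ methylation Fzd5 in cohort 1 (-0.19), Fgfr3 in cohort 2 (-0.10), Nrp2 in cohort 1 (-0.52) and Ltbp1 in cohort 2 (-0.021). The cohort difference in δ methylation of Fzd5 reversed in percentage points (-1.88) and in log odds (-0.065).

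With each pup left out, values that reversed ran from -0.29 to 0.15 (Fgfr3) and -0.028 to 0.35 (Nrp2) for LBNs on P10, from -0.013 to 0.45 (Ltbp1) and -0.53 to 0.030 (Nrp2) on P2, from -0.58 to 0.25 for age of Nrp2 in LBNs, from -0.37 to 0.10 for age of Ltbp1 in controls, from -0.056 to 0.22 for age of Ltbp1, and from -0.058 to 0.27 for the cohort difference in δ methylation of Fzd5.

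Counts over all DMRs moved for age to 880 in cohort 1 and 943 in cohort 2, for controls to 24 in cohort 1, for LBNs to 563 in cohort 1 and 568 in cohort 2, for LBNs against controls on P10 from 0 to 409 in cohort 1, on P2 from 0 to 479 in cohort 2 and in δ methylation from 0 to 12 in cohort 2. The cohort difference in δ methylation went from 208 to 118 in percentage points, 82 in log odds and 89 with each pup centred on its median, an alternative chosen after seeing the data. The interaction went from 1 to 5 in percentage points and 2 in log odds. Without each pup in turn, counts ran from 1356 to 1575 for age, 643 to 1220 in controls, 16 (without LBN2 of cohort 2) to 198 in LBNs, 1537 to 1804 and 247 to 800 for cohort on P10 and P2, 114 to 432 for cohort in δ methylation, and 0 to 238 (without LBN4 of cohort 1) for the interaction, and stayed at 0 for LBNs against controls.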
